A study of Mus musculus with 26 samples.

Results

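The genes described here are the mouse DNA methylation writers Dnmt1, Uhrf1, Dnmt3a and Dnmt3b and the erasers Tet1, Tet2 and Tet3, measured by RNA-seq in developing invariant natural killer T (NKT) cells. They were taken by gene symbol, 7 of the 23168 symbols with a value in all 26 libraries, and each had 1 row per library with a completed estimate. The libraries came from C57BL/6 mice of 6 to 8 weeks and fall into 5 groups. DN1eP-NKT (4 libraries) were cells positive for the Valpha14Jalpha18 T cell receptor, obtained from DN1eP precursors after 10 days on OP9/Dll-1 stroma, a bone marrow stromal line that presents a Notch ligand, with IL-2 and IL-7 at 5 ng/ml each. DN1eP (4 libraries) were those thymic precursors, which were lineage-negative, CD44+, CD25-, CD24low, CD5+, CD27+, Ly108- and CXCR3+ and lacked that receptor on the surface. Thymic NKT cells were sorted with a lipid-loaded CD1d dimer and an antibody to the receptor beta chain, as stage 1 (NKT-1, CD44-NK1.1-, 5 libraries), stage 2 (NKT-2, CD44+NK1.1-, 7) and stage 3 (NKT-3, CD44+NK1.1+, 6). The labels do not say that libraries of a group came from separate animals, so the p-values below measure only the spread between these samples.

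DNA methylation at CpG is copied at each cell division by Dnmt1, the maintenance methyltransferase, which Uhrf1 brings to hemimethylated DNA behind the replication fork. Dnmt3a and Dnmt3b place methyl groups on sites that had none. Tet1, Tet2 and Tet3 are dioxygenases that oxidise 5-methylcytosine to 5-hydroxymethylcytosine and beyond, which leads to demethylation by dilution or by base excision; in mouse NKT cells, Tet2 and Tet3 are known to limit proliferation and to shape lineage choice.

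In the deposited mm9 coordinates the genes lie at chr9:20711650-20764332 (Dnmt1), chr17:56442760-56462909 (Uhrf1), chr12:3806980-3914443 (Dnmt3a), chr2:153475190-153513466 (Dnmt3b), chr10:62267318-62342762 (Tet1), chr3:133126641-133207354 (Tet2) and chr6:83312368-83391672 (Tet3). The measurement is gene level, so these intervals cover exons and introns alike. Dnmt1 and Uhrf1 moved together with the genes of DNA replication in the libraries, so a promoter of each is shown. It is the one that held a match to the motif below, as both genes have other promoters. That of Tet2, whose level did not follow the replication genes, is shown beside them. The sequences are from RefSeq on GRCm38.p6 (another build than the intervals above) and run from 250 bases before to 50 bases after the start of transcription, 5′ to 3′ on the strand of the gene. Capitals mark matches to 4 spellings of the E2F motif, TTTGGCGC, TTTCGCGC, TTTCCCGC and TTTGCCGC, searched on both strands.
Dnmt1, chr9:20952574-20952873, minus strand: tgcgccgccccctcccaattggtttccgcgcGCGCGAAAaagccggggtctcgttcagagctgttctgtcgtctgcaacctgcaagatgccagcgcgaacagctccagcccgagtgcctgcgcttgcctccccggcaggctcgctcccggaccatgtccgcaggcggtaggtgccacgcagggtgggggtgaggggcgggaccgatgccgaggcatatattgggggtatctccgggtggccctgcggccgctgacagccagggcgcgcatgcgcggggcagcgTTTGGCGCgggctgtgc
Uhrf1, chr17:56304063-56304362, plus strand: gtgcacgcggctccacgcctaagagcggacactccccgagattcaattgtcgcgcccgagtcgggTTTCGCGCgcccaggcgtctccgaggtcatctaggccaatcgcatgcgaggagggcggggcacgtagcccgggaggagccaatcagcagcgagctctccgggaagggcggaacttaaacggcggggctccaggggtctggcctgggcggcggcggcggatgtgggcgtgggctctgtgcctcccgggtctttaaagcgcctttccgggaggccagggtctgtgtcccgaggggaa
Tet2, chr3:133544341-133544640, minus strand: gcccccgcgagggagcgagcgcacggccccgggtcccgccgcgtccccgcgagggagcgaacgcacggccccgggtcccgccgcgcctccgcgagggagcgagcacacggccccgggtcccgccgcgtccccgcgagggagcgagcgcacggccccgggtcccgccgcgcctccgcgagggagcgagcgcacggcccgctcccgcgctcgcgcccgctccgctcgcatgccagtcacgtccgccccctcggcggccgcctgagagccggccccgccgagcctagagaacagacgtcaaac
All 7 genes had a promoter in the table, 12 promoters in all, and 2 of the 12 held a match. The Dnmt1 promoter shown held 2, GCGCGAAA starting at base -219 and TTTGGCGC starting at base 34 from the start of transcription. The other Dnmt1 promoters, with 2 and 12 CpG, held no match. The Uhrf1 promoter shown held TTTCGCGC starting at base -185, and the other Uhrf1 promoter, with 12 CpG, held no match. Of 32851 mouse promoters of this length, 744 (2.26%) held a match. The Dnmt1 and Uhrf1 windows shown held 33 CpG each and the Tet2 window 57, against a median of 7 over all promoters. A match describes the letters in the window and does not show that a factor binds there.

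The values are FPKM, fragments per kilobase of transcript scaled to the mapped fragments of the library. The libraries fall into 2 sets of 13 that do not follow cell stage: taken over genes that reached 1 FPKM, a library's median was 12.97 to 13.85 FPKM in the higher set and 7.58 to 9.81 in the lower set. All DN1eP-NKT libraries lie in the higher set and all DN1eP libraries in the lower one, while each thymic stage has libraries in both. DN1eP was therefore compared with the 9 lower-set thymic libraries (3 of each stage), and DN1eP-NKT with the 9 higher-set ones (2 of NKT-1, 4 of NKT-2, 3 of NKT-3). Stage comparisons are the mean of the differences within the sets. The labels name 2 library kits without saying which library had which. The files hold no counts, and depth relative to the shallowest library, read from the width of the deposited intervals, was 1 to 2.39 in 13 libraries and 10.2 to 21.1 in the other 13. Libraries 2 to 4 of DN1eP are shallow, while all lower-set thymic libraries are deep. Library 1 of DN1eP-NKT, DN1eP, NKT-1 and NKT-2 was the deep one of its group in its set. The deep DN1eP library had the lowest Dnmt1, Uhrf1, Dnmt3b and Tet2 of the 4. The summed FPKM of 8 erythroid markers reached 199 in NKT-2 library 6 and 827 in NKT-3 library 5, and that of 8 B cell markers 142 and 43.7 there. NKT markers were present in all groups, with none of the 7 found in the files at 0 throughout a group. Their sum was lowest in a higher-set NKT-1 library at 1159 FPKM and highest in a DN1eP library, of the lower set, at 5411. The sum does not rank the groups, as its genes went both ways. In DN1eP relative to NKT-1, Zbtb16 was lower (log2 change -1.69), while Klrb1c (5.24), Cd44 (3.61), Il2rb (2.12) and Tbx21 (1.27) were higher. In bulk samples, fewer cells of a type and less RNA per cell cannot be told apart.

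Changes are differences of log2(FPKM + 1), a scale that understates the change of genes near or below 1 FPKM. They are given with the standard error and the adjusted p from 1 limma fit over all 26 libraries, adjusted by Benjamini and Hochberg over 11663 genes. A change is called where that adjusted p is under 0.05. All 7 members passed the filter of 1 FPKM in 4 libraries. Tet1 did so with only 8 libraries, 6 of them higher-set NKT-1 and NKT-2, so the number of its calls is no support in itself.

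Over all comparisons 27 changes were called. Uhrf1 was called in 7 of the 10 comparisons, Dnmt1, Dnmt3a and Tet1 in 6 each, Tet2 in 2, and Dnmt3b and Tet3 in none. Without the 4 library 1s together 26 of these calls held, and all 27 did when NKT-2 library 6 and library 5 of NKT-3 were dropped. In DN1eP, 1 member was higher and 3 were lower than in NKT-1, where 14.7% of all genes were called higher and 18.9% lower (33.7% in all). Against NKT-2, 1 was again higher and 3 lower, beside 17.9% of genes higher and 11.6% lower (29.5% in all). Against NKT-3, none was higher and 1 was lower, beside 16.2% higher and 4.42% lower (20.6% in all). The library ranges of DN1eP did not overlap those of stages 1 to 3 in 4, 3 and 3 members, as in 31.7%, 24.5% and 19.9% of all genes. The share of all calls that were higher was 60.7% against NKT-2 and 78.6% against NKT-3 as tested, and 48.7% and 51.0% with upper-quartile scaling.

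DN1eP-NKT cells had no member higher and 2 lower than NKT-1, with 8.49% of genes called higher and 6.76% lower (15.2% in all). They had none higher and 2 lower than NKT-2, with 11.1% of genes higher and 7.97% lower (19.1%). Compared with NKT-3, they had 2 members higher and 1 lower, with 15% of genes higher and 8.39% lower (23.4%). Their ranges did not overlap those of stages 1 to 3 in 4, 3 and 4 members, as in 37.1%, 24.8% and 37% of all genes. DN1eP-NKT cells had 2 members higher and 1 lower than DN1eP, with 15% of genes higher and 16.6% lower (31.6%). Of all calls, 58.3% were higher against NKT-2 and 64.1% against NKT-3 as tested, and 47.7% and 48.8% with quantile normalization, and against DN1eP 47.4% were higher as tested and 60.6% with upper-quartile scaling.

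Between thymic stages, NKT-3 had 4 members lower and none higher than NKT-2, where 18.4% of genes were called lower and 10.6% higher (29% in all). It had 4 lower and none higher than NKT-1, where 26.6% of genes were lower and 10.6% higher (37.2%). Calls that were higher made up 36.6% and 28.6% of these as tested, and 48.1% and 46.8% with quantile normalization. Within the higher set alone, these comparisons called 21.6% and 22.2% of all genes, and within the lower set 11.7% and 25.4%. Between NKT-2 and NKT-1 no member was called by limma, although 3 of 7 had an unadjusted p under 0.05. In that comparison 1% of all genes (117 of 11663) were called, 0.566% higher and 0.437% lower, and 1231 had an unadjusted p under 0.05. Higher calls were 56.4% of them as tested and 76.6% with quantile normalization.

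**Figure D1:**
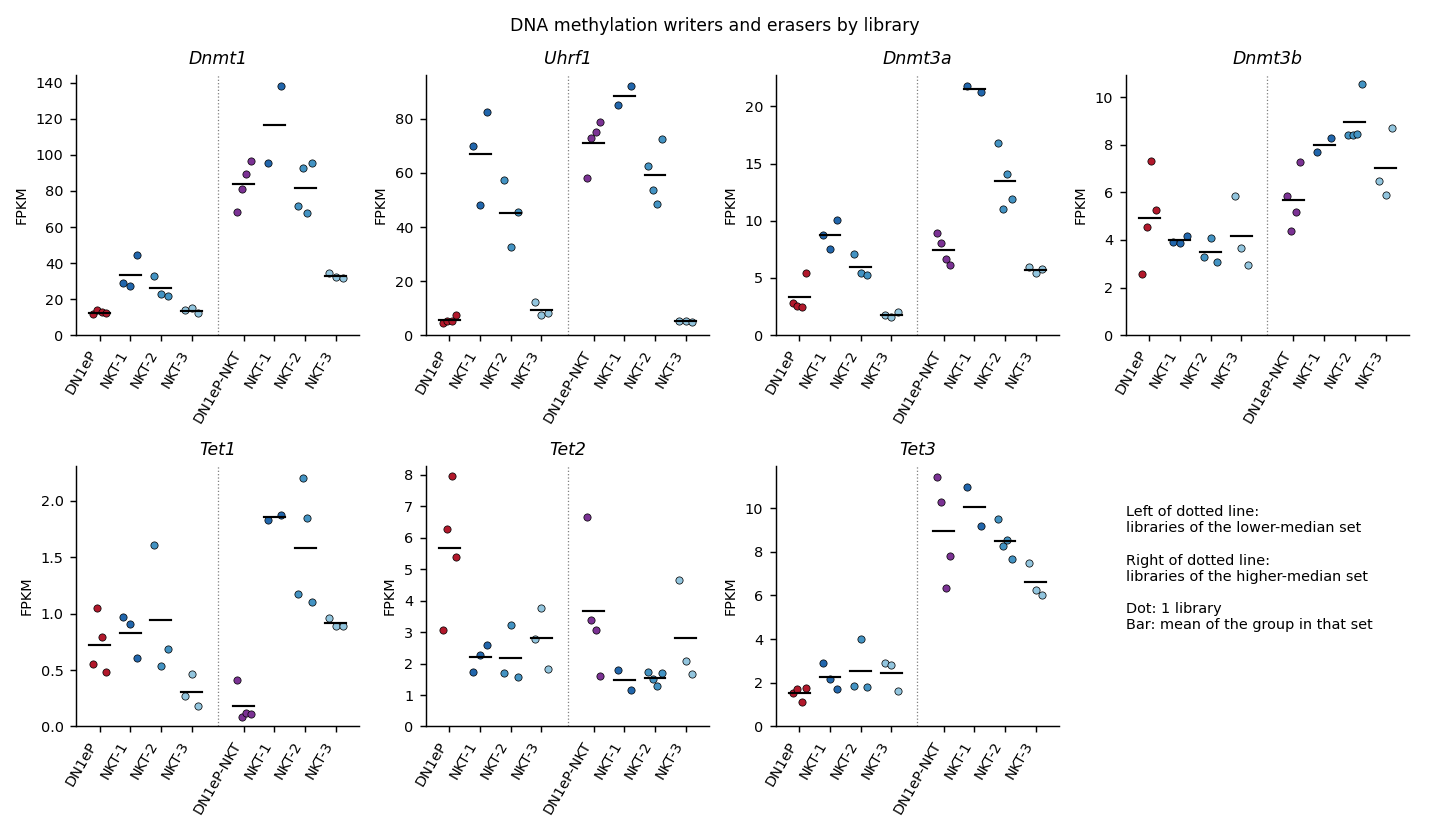
FPKM (vertical axis) of each member in every library (dots), with the mean of each group as a bar; groups left of the dotted line belong to the lower-median set and those right of it to the higher-median set. Dnmt1 and Uhrf1 are low in DN1eP and NKT-3 and high in DN1eP-NKT, NKT-1 and NKT-2 within their sets. Within the lower set the mean of Tet2 is highest in DN1eP. Its libraries there span 3.05 to 7.95 FPKM, and the lowest lies within the ranges of NKT-2 and NKT-3.

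Among the maintenance genes, Dnmt1 was low in the precursors and in the mature stage. It measured 11.5, 13.7, 12.7 and 12.3 FPKM in DN1eP, against 28.7, 27.2 and 44.4 in NKT-1, 33.1, 22.9 and 21.8 in NKT-2, and 13.8, 14.8 and 12.3 in NKT-3. The DN1eP libraries lay below every NKT-1 and NKT-2 library of their set and within the range of NKT-3. Dnmt1 fell by 1.31 ± 0.20 on the log2 scale in DN1eP relative to NKT-1 (adjusted p = 1.37e-05, limma) and by 0.97 ± 0.20 relative to NKT-2 (adjusted p = 0.000601, limma). The call against NKT-2 was lost with a replicate block, a term for the library number (-0.79, adjusted p = 0.0869, limma). Relative to NKT-3 the difference was -0.11 ± 0.20 (adjusted p = 0.744, limma).

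In the cultured cells Dnmt1 was above NKT-3 and overlapped the early stages. It measured 68.2, 81.2, 89.2 and 96.9 FPKM in DN1eP-NKT, against 95.4 and 138 in NKT-1, 71.6, 92.6, 67.9 and 95.3 in NKT-2, and 34.6, 32.2 and 31.8 in NKT-3. Every DN1eP-NKT library was above every NKT-3 library, and their range overlapped those of NKT-1 and NKT-2. Dnmt1 was higher than in NKT-3 by 1.31 ± 0.20 (adjusted p = 9.94e-06, limma), and the differences from NKT-1 (-0.46 ± 0.22, adjusted p = 0.195) and NKT-2 (0.04 ± 0.18, adjusted p = 0.93) were not called. With quantile normalization Dnmt1 was called lower than in NKT-1 (-0.50, adjusted p = 0.0437, limma). Between stages, NKT-3 was lower than NKT-2 by a log2 change of -1.07 ± 0.14 (adjusted p = 2.02e-06, limma) and lower than NKT-1 by -1.49 ± 0.16 (adjusted p = 3.01e-08). Each of these was called within each library set on its own. With no term for the library set, NKT-3 minus NKT-2 was not called (-1.18, adjusted p = 0.0503, limma). The FPKM of Dnmt1 differed between the sets at the same stage by a mean of 1.54 on the log2 scale, higher in the higher set.

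Uhrf1, the reader of hemimethylated CpG that recruits Dnmt1, had the largest change of the 7 members in DN1eP relative to NKT-1 and NKT-2, in DN1eP-NKT relative to NKT-3 and DN1eP, and in NKT-3 relative to each earlier stage. It measured 4.56, 5.17, 5.15 and 7.33 FPKM in DN1eP, against 69.9, 48.3 and 82.7 in NKT-1, 57.3, 32.5 and 45.5 in NKT-2, and 12.3, 7.55 and 8.37 in NKT-3. No DN1eP library reached the range of any stage, although library 4, at 7.33 FPKM, was just below the lowest NKT-3 library at 7.55. Uhrf1 fell by 3.36 ± 0.22 relative to NKT-1 (adjusted p = 2.46e-11, limma), a 10.2-fold difference on this scale, and by 2.80 ± 0.22 relative to NKT-2 (adjusted p = 1.24e-09). Relative to NKT-3 it fell by 0.66 ± 0.22 (adjusted p = 0.0322, limma), a call that was lost without any 1 of DN1eP libraries 1, 2 or 3 or NKT-3 libraries 4 or 6 (adjusted p = 0.0581 to 0.182). It was also lost with the 4 library 1s left out together (-0.58, adjusted p = 0.0662), in a fit of only the compared libraries (adjusted p = 0.169) and with library set as an additive term (-0.27, adjusted p = 0.442).

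In DN1eP-NKT cells Uhrf1 measured 58, 72.9, 75.1 and 78.9 FPKM, against 85.2 and 92 in NKT-1, 62.5, 53.6, 48.7 and 72.6 in NKT-2, and 5.22, 5.21 and 4.94 in NKT-3. The DN1eP-NKT libraries lay below both NKT-1 libraries, overlapped NKT-2 and were all above NKT-3. The difference from NKT-3 was 3.55 ± 0.22 (adjusted p = 4.8e-12, limma), or 11.7-fold, and those from NKT-1 (-0.32 ± 0.25, adjusted p = 0.475) and NKT-2 (0.27 ± 0.20, adjusted p = 0.424) were not called. Uhrf1 fell by 2.71 ± 0.16 in NKT-3 relative to NKT-2 (adjusted p = 1.2e-12, limma) and by 3.29 ± 0.17 relative to NKT-1 (adjusted p = 1.4e-13). The change in NKT-3 relative to NKT-1 was -3.87 in the higher set and -2.70 in the lower one, and the test of that difference was not called (adjusted p = 0.211, limma). The difference between the sets at the same stage (higher minus lower, log2) changed sign for Uhrf1, at 0.43 in NKT-1, 0.41 in NKT-2 and -0.74 in NKT-3.

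Set side by side per library, Uhrf1 and Dnmt1 did not keep a fixed ratio. The FPKM of Uhrf1 divided by that of Dnmt1 was 0.378 to 0.595 in DN1eP, against 1.78 to 2.43 in NKT-1, 1.42 to 2.09 in NKT-2 and 0.509 to 0.888 in NKT-3 of the lower set. It was 0.815 to 0.897 in DN1eP-NKT, against 0.665 to 0.893 in NKT-1, 0.579 to 0.874 in NKT-2 and 0.151 to 0.162 in NKT-3 of the higher set. NKT-3 thus had the lowest stage ratio in each set, and its ranges did not overlap those of NKT-1 or NKT-2. The ratio differed by set at every stage, so its absolute size cannot be read across sets.

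Dnmt3a, the de novo methyltransferase best known from blood cells, was highest in NKT-1 in each set. It measured 2.85, 2.58, 2.46 and 5.41 FPKM in DN1eP, against 8.74, 7.56 and 10.1 in NKT-1, 7.13, 5.45 and 5.3 in NKT-2, and 1.75, 1.6 and 2.03 in NKT-3. Library 4 was the high one among DN1eP and alone reached the range of NKT-2. Dnmt3a fell by 1.22 ± 0.21 relative to NKT-1 (adjusted p = 0.0001, limma) and by 0.73 ± 0.21 relative to NKT-2 (adjusted p = 0.0121), and the call against NKT-2 was lost without NKT-2 library 5 (adjusted p = 0.0699) and in a fit of only the compared libraries (adjusted p = 0.166). Relative to NKT-3 all 4 DN1eP libraries were higher, and the difference of 0.58 ± 0.21 missed the threshold (adjusted p = 0.0538, limma).

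DN1eP-NKT cells did not have the Dnmt3a level of the early stages. They measured 8.95, 8.08, 6.67 and 6.12 FPKM, against 21.8 and 21.2 in NKT-1, 16.8, 11, 14.1 and 11.9 in NKT-2, and 5.92, 5.44 and 5.74 in NKT-3. Their range lay between those of NKT-2 and NKT-3 and touched neither. Dnmt3a was lower than in NKT-1 by a log2 change of -1.42 ± 0.24 (adjusted p = 9.32e-05, limma) and lower than in NKT-2 by -0.77 ± 0.20 (adjusted p = 0.00582), and the difference from NKT-3 of 0.32 ± 0.21 was not called (adjusted p = 0.308). With no term for the library set, which pools thymic libraries of both sets, the differences from NKT-1 (-0.70, adjusted p = 0.186, limma) and NKT-2 (-0.32, adjusted p = 0.542) were not called. Along the thymic stages it fell by 1.2 ± 0.16 in NKT-3 relative to NKT-2 (adjusted p = 1.32e-06, limma) and by 1.78 ± 0.17 relative to NKT-1 (adjusted p = 6.72e-09), in each set on its own as well. NKT-2 minus NKT-1 was -0.58 ± 0.17 (adjusted p = 0.117, limma).

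Dnmt3b, the other de novo enzyme, was called in no comparison. It measured 2.58, 4.55, 7.31 and 5.27 FPKM in DN1eP, against 3.89 to 4.15 in NKT-1, 3.06 to 4.09 in NKT-2 and 2.94 to 5.86 in NKT-3. The DN1eP libraries spread over a wider range than any stage and overlapped all of them. In DN1eP-NKT it measured 4.38 to 7.28 FPKM, against 7.72 to 8.29 in NKT-1, 8.41 to 10.6 in NKT-2 and 5.88 to 8.7 in NKT-3. All DN1eP-NKT libraries were below NKT-1 and NKT-2, with a difference from NKT-2 of -0.59 ± 0.23 (adjusted p = 0.0693, limma). With quantile normalization that difference was -0.71 (adjusted p = 0.0108, limma). The share of Dnmt3a in the summed FPKM of Dnmt3a and Dnmt3b was 23.0 to 40.9% in NKT-3, against 57.1 to 68.3% in NKT-2 and 66.0 to 70.8% in NKT-1 of the lower set. In the higher set it was 39.8 to 48.1% in NKT-3, against 53.0 to 66.6% in NKT-2 and 71.9 to 73.8% in NKT-1. NKT-3 shares lay below those of NKT-2 and NKT-1 in each set. The share was 45.7 to 64.9% in DN1eP-NKT and 25.1 to 52.6% in DN1eP.

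Among the erasers, Tet2, known for its part in blood progenitors, was the only member called higher in DN1eP than in any stage. It measured 3.05, 6.29, 7.95 and 5.37 FPKM in DN1eP, against 1.73, 2.28 and 2.6 in NKT-1, 1.69, 3.22 and 1.58 in NKT-2, and 2.79, 3.78 and 1.83 in NKT-3. All DN1eP libraries were above NKT-1, and library 1, the lowest, lay within the ranges of NKT-2 and NKT-3. Tet2 was higher than in NKT-1 by 1.01 ± 0.32 (adjusted p = 0.0168, limma) and than in NKT-2 by 1.06 ± 0.32 (adjusted p = 0.015), while the difference from NKT-3 was 0.79 ± 0.32 (adjusted p = 0.0844). That from NKT-3 was called without DN1eP library 1 (1.01, adjusted p = 0.0212, limma) and without the 4 library 1s (adjusted p = 0.0136), which leaves only shallow DN1eP libraries. The call against NKT-1 was lost without DN1eP library 3 (adjusted p = 0.0588) or NKT-1 library 3 (0.076), and that against NKT-2 without DN1eP library 3 or NKT-2 libraries 5 or 7 (0.0537 to 0.0715). In fits of only the compared libraries neither call held (adjusted p = 0.0548 against NKT-1 and 0.0804 against NKT-2, limma). Summed over 8 myeloid and dendritic markers, DN1eP libraries held 23.0 to 360 FPKM, against 0.173 to 11.4 in NKT-1, 0.0308 to 63.0 in NKT-2 and 0.531 to 26.4 in NKT-3. Of these markers only Cd14 was at 0 in all DN1eP libraries, and the library with 360 FPKM was library 1, which had the lowest Tet2 of the 4. The 8 B cell markers summed to 21.2, 43.5, 51.0 and 28.1 FPKM in DN1eP libraries 1 to 4, in the same order as Tet2, against 0.305 to 3.45 in NKT-1, 5.73 to 142 in NKT-2 and 2.64 to 43.7 in NKT-3. Ms4a1, Pax5 and Blnk among them were at 0 in all DN1eP libraries. The part of either kind of cell in the Tet2 values was not tested.

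In DN1eP-NKT, Tet2 measured 6.65, 3.39, 3.06 and 1.61 FPKM, against 1.8 and 1.17 in NKT-1, 1.73, 1.5, 1.29 and 1.7 in NKT-2, and 4.65, 2.1 and 1.67 in NKT-3. Library 1 was high and library 4 was within the range of NKT-1, and none of the 3 differences was called (0.27 to 0.82, adjusted p = 0.0732 to 0.611, limma). Tet2 made up 59.2 to 80.6% of the summed FPKM of the 3 Tet genes in DN1eP, against 30.8 to 53.0% in NKT-1, 32.8 to 41.4% in NKT-2 and 46.8 to 53.6% in NKT-3 of the lower set. The DN1eP shares did not overlap those of any stage. In DN1eP-NKT the share was 16.9 to 36.0%, against 9.55 to 12.3% in NKT-1, 11.1 to 16.3% in NKT-2 and 19.5 to 35.5% in NKT-3 of the higher set. At every stage the share was lower in the higher set, so its size cannot be read across sets.

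**Figure D2:**
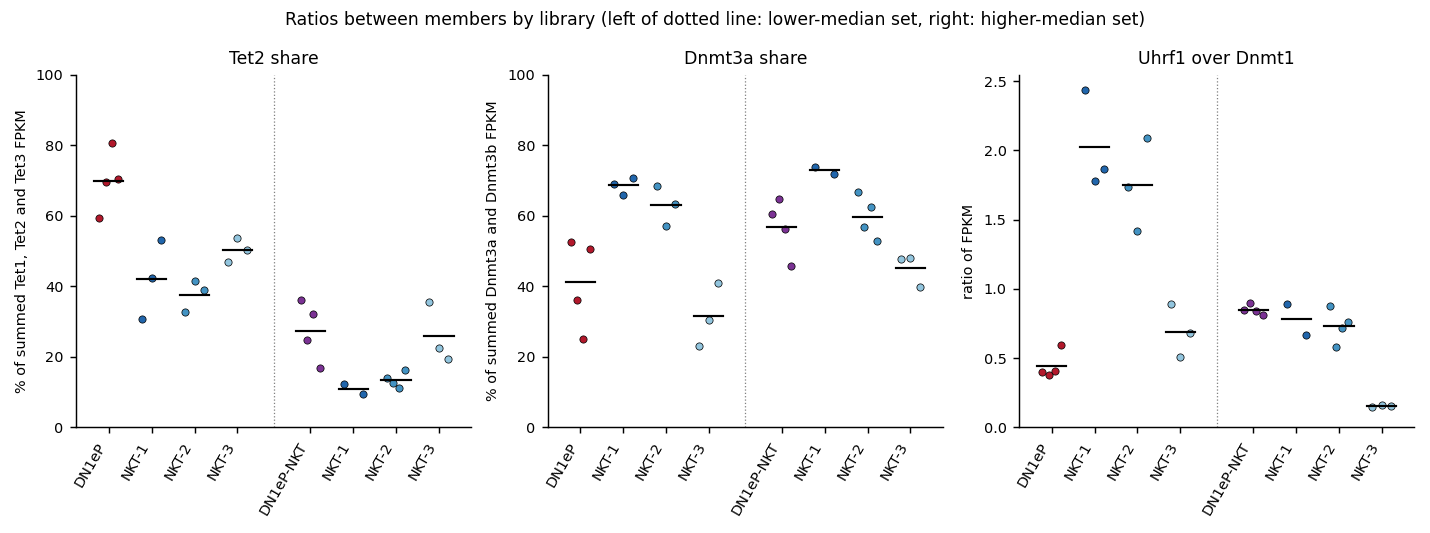
Share of Tet2 in summed Tet FPKM, share of Dnmt3a in summed Dnmt3a and Dnmt3b FPKM (both in %), and Uhrf1 FPKM divided by Dnmt1 FPKM, 1 dot per library, with group means as bars and the library sets parted by the dotted line. Within the lower set, the Tet2 share of DN1eP (59.2 to 80.6%) lies above that of each thymic stage. Within the higher set, the ratio of Uhrf1 to Dnmt1 is lowest in NKT-3 (0.151 to 0.162).

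Tet1, at no more than 2.2 FPKM in any library, was lower in the cultured cells than in any thymic stage of the higher set. It measured 0.409, 0.0798, 0.117 and 0.110 FPKM in DN1eP-NKT, against 1.83 and 1.87 in NKT-1, 1.18, 2.2, 1.85 and 1.1 in NKT-2, and 0.962, 0.894 and 0.888 in NKT-3. No DN1eP-NKT library reached the range of a stage in that set, and library 1 was the high one of the 4. In libraries 2 to 4 the deposited interval reached down to 0, so these levels are near the limit of detection. Tet1 fell by 1.28 ± 0.25 relative to NKT-1 (adjusted p = 0.000495, limma), by 1.12 ± 0.21 relative to NKT-2 (adjusted p = 0.000187) and by 0.71 ± 0.22 relative to NKT-3 (adjusted p = 0.0206). The call against NKT-3 was lost with upper-quartile scaling (adjusted p = 0.07, limma) and without DN1eP-NKT library 2 or any 1 of the 3 NKT-3 libraries (0.0527 to 0.0639). The 8 stromal markers summed to 71.7 to 383 FPKM in DN1eP-NKT, against at most 0.780 in the higher-set thymic libraries. They were lowest in library 1, which had the highest Tet1, and their part in these values was not tested.

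In DN1eP, Tet1 measured 0.551, 1.05, 0.796 and 0.484 FPKM, against 0.966, 0.905 and 0.609 in NKT-1, 1.61, 0.536 and 0.689 in NKT-2, and 0.272, 0.466 and 0.181 in NKT-3. DN1eP overlapped NKT-1 and NKT-2 and was above NKT-3, with no difference called (-0.15 to 0.39, adjusted p = 0.225 to 0.787, limma). NKT-3 was lower than NKT-2 by -0.47 ± 0.16 (adjusted p = 0.029, limma) and lower than NKT-1 by -0.53 ± 0.18 (adjusted p = 0.0207). Neither held within 1 library set (adjusted p = 0.128 to 0.21). The first was lost on leaving out library 2, 3 or 5 of NKT-2, or library 2, 3, 4 or 6 of NKT-3 (adjusted p = 0.0517 to 0.116), and the second without either higher-set NKT-1 library (0.0535 and 0.0602) and with quantile normalization (0.0992).

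Tet3 was called in no comparison, and its FPKM differed more between the library sets than between groups within a set. It measured 1.11 to 1.77 FPKM in DN1eP, against 1.69 to 2.91 in NKT-1, 1.79 to 4.03 in NKT-2 and 1.62 to 2.9 in NKT-3. In DN1eP-NKT it measured 6.35 to 11.4 FPKM, against 9.18 to 11 in NKT-1, 7.65 to 9.49 in NKT-2 and 6.03 to 7.49 in NKT-3. The DN1eP libraries lay below NKT-2 and overlapped the low end of NKT-1 and NKT-3, with differences of -0.36 to -0.44 (adjusted p = 0.165 to 0.257, limma). With quantile normalization the differences from NKT-2 (-0.65, adjusted p = 0.0294, limma) and NKT-3 (-0.68, adjusted p = 0.0326) were called. The mean difference between sets at a given stage was 1.47 on the log2 scale, so the high Tet3 of DN1eP-NKT beside DN1eP is no result.

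DN1eP-NKT and DN1eP never share a library set. Their difference was therefore taken after the mean set difference of the 3 thymic stages was subtracted, on the assumption that it holds for these cells too. So computed, Uhrf1 was higher in DN1eP-NKT by 3.44 ± 0.24 (adjusted p = 1.94e-10, limma) and Dnmt1 by 1.10 ± 0.22 (adjusted p = 0.000484). The set difference subtracted was 0.03 for Uhrf1, the mean of stage values of opposite sign (0.43, 0.41 and -0.74), and 1.54 for Dnmt1 (1.21 to 1.79). Whether either holds for DN1eP-NKT and DN1eP cannot be checked here. Tet1 fell by 1.09 ± 0.25 (adjusted p = 0.0017, limma), after a set difference of 0.54 was subtracted. Its fall was not called with no term for the set (-0.54, adjusted p = 0.0666, limma) or with the replicate block (-0.78, adjusted p = 0.11). Dnmt3a differed by -0.17 ± 0.24 (adjusted p = 0.626, limma), and with no term for the set by 1.0 (adjusted p = 0.0444), so its direction rests on that term. Dnmt3b (-0.67 ± 0.27, adjusted p = 0.0618, limma), Tet2 (-0.33 ± 0.36, adjusted p = 0.511) and Tet3 (0.49 ± 0.26, adjusted p = 0.164) were not called. Without DN1eP library 1, Dnmt3b was lower by -0.89 (adjusted p = 0.00734, limma).

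**Figure D3:**
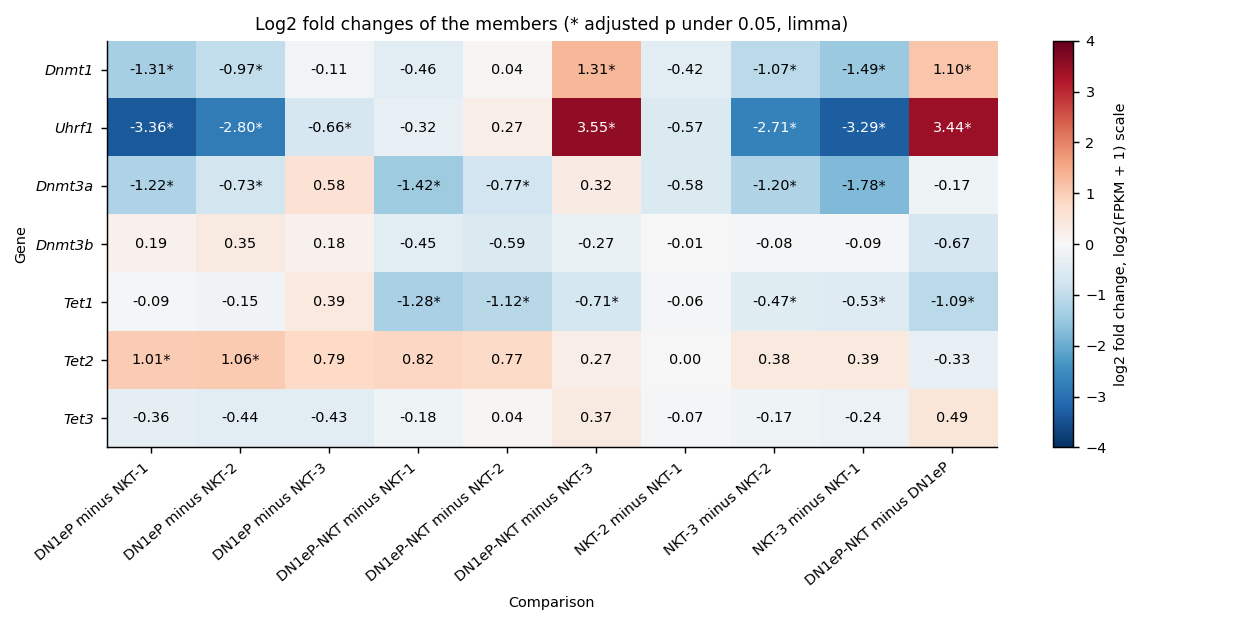
Log2 fold changes on the log2(FPKM + 1) scale (colour and number) of the 7 members (rows) in the 10 comparisons (columns), with a star where limma's adjusted p was under 0.05. Uhrf1 spans -3.36 in DN1eP minus NKT-1 to 3.55 in DN1eP-NKT minus NKT-3, while the Dnmt3b and Tet3 rows hold no star.

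The levels of Dnmt1 and Uhrf1 moved with genes of the cell cycle. Of 25 genes of S phase, such as those of the Mcm helicase, 23 were lower and none higher in DN1eP than in NKT-1 (median log2 change -1.89, against -0.07 over all genes), and 21 were lower and none higher than in NKT-2 (median -1.47, against 0.08). Against NKT-3, 2 were higher and 1 lower in DN1eP, with a median of -0.10, against 0.16 over all genes. In DN1eP-NKT, 23 were higher and none lower than in NKT-3 (median 1.97, against 0.05 over all genes), and 22 were higher and none lower than in DN1eP (median 1.82, against -0.04). All 15 genes of mitosis, among them Mki67 and Ccnb1, were lower in DN1eP than in NKT-1 and higher in DN1eP-NKT than in NKT-3. The mean log2(FPKM + 1) of the S phase genes was 2.95 to 3.21 in DN1eP, against 4.93 to 5.21 in NKT-1, 4.29 to 4.96 in NKT-2 and 2.98 to 3.42 in NKT-3 of the lower set. It was 4.97 to 5.42 in DN1eP-NKT, against 5.42 to 5.51 in NKT-1, 5.10 to 5.17 in NKT-2 and 2.98 to 3.25 in NKT-3 of the higher set. The part of the cell cycle in the changes of Dnmt1 and Uhrf1 was not tested.

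**Figure D4:**
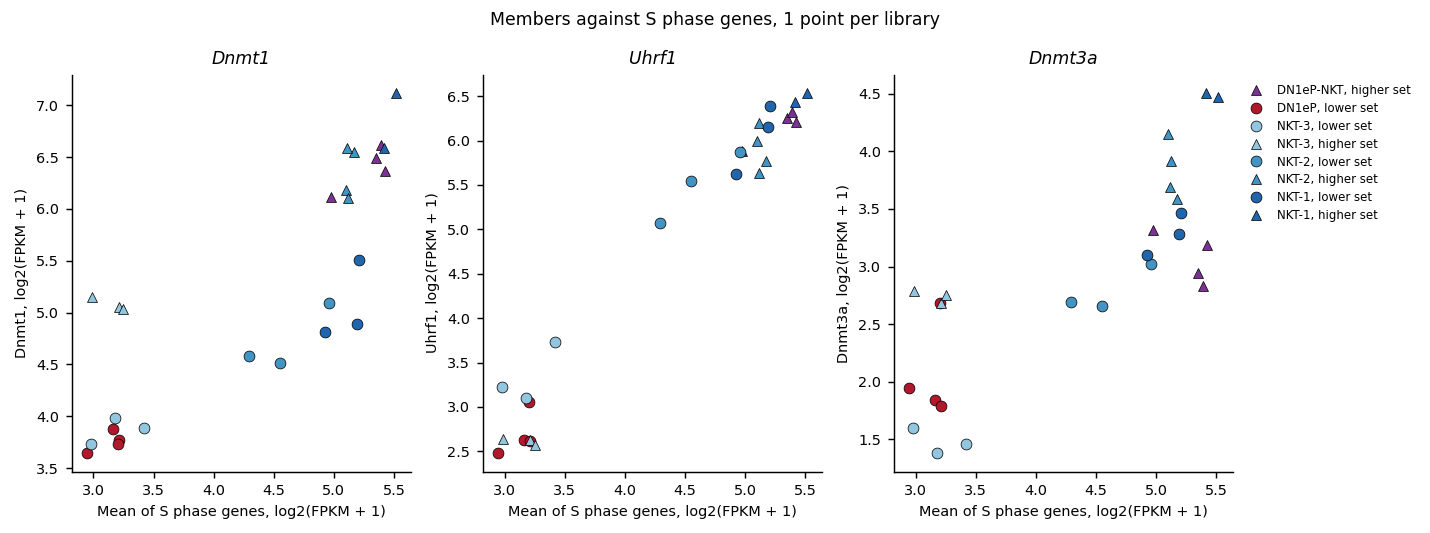
Log2(FPKM + 1) of Dnmt1, Uhrf1 and Dnmt3a (vertical axes) against the mean log2(FPKM + 1) of 25 S phase genes (horizontal axes), 1 point per library, coloured by group, with triangles for the higher set and circles for the lower one. Libraries of both sets fall close to 1 line for Uhrf1. For Dnmt1 the higher set lies above the lower one at the same S phase level. The same holds for Dnmt3a among the NKT-1, NKT-2 and NKT-3 libraries. DN1eP-NKT libraries 2 to 4, at 2.83 to 3.18 for Dnmt3a, lie below lower-set NKT-1 libraries 3 and 5 (3.28 and 3.47).

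Over the 26 libraries, with the thymic set difference subtracted from the higher-set ones, the S phase mean correlated with Uhrf1 at Pearson r = 0.988, with Dnmt1 at 0.957 and with Dnmt3a at 0.696. It correlated with Dnmt3b at -0.149, with Tet1 at 0.033, with Tet2 at -0.426 and with Tet3 at 0.449. These values describe libraries that share groups and depth, and carry no test. Dnmt1 and Uhrf1 correlated with each other at 0.953. Of the genes averaging at least 5 FPKM, those most like Dnmt1 were Lig1 (0.963), which seals the lagging strand, Uhrf1, Cdc6 (0.945), Mcm5 (0.942) and Tfdp1 (0.941). Those most like Uhrf1 were Cks1b (0.981), Ccnf (0.980), Cdc20 (0.979), Shcbp1 (0.976) and Ccnb2 (0.976). For Dnmt3a they were Adk (0.901), Ifi27l1, Hspa4l, St13 and Sumo3 (0.885), and for Tet1 Zfp422 (0.914), Cd9, Tox, Ramp1 and Wdr26 (0.884). Tet2 was most like Slk (0.856), Slc20a1, Lilrb4, Mysm1 and Zc3h7a (0.816). The best matches were weaker for Tet3 (Scaf4, 0.802) and Dnmt3b (Gtf2i, 0.792).

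The other genes of these pathways were counted from lists, and the values named are calls by limma. All 426 calls of listed genes kept their direction under upper-quartile scaling (405 still called) and under quantile normalization (406 still called). Of 10 partners of maintenance methylation, 6 were lower and 1 higher in DN1eP than in NKT-1, with a median of -0.72, against -0.07 over all genes. Among them Hells, a remodelling helicase needed for methylation of repeats, averaged 2.36 ± 1.0 FPKM in DN1eP and 18.1 ± 7.14 in NKT-1 (SD, n = 4 and 3), a log2 change of -2.49 ± 0.26. Cdca7, which works with Hells, averaged 14.6 ± 3.28 in DN1eP and 91.4 ± 25.8 in NKT-1 (-2.55 ± 0.31). Lig1 averaged 9.02 ± 2.80 in DN1eP and 44.7 ± 7.12 in NKT-1 (-2.23 ± 0.26). Against NKT-3, 5 of the 10 were higher in DN1eP-NKT and none lower, with a median of 0.65, against 0.05 over all genes. Of all genes, 23.4% were called there, 15% higher. Hells changed most of the 10, with 24.6 ± 1.76 FPKM in DN1eP-NKT and 4.45 ± 0.776 in NKT-3 (2.24 ± 0.26, adjusted p = 2.86e-07, limma). Cdca7 was lower in DN1eP-NKT (32.5 ± 12.1 FPKM) than in NKT-1 (83.2 ± 25), by a log2 change of -1.38 ± 0.35. It was the only call among the 10 there, where 15.2% of all genes were called. In NKT-3 relative to NKT-1, Cdca7 changed by -3.27 ± 0.25 and Hells by -2.70 ± 0.21.

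Of the de novo partners, Setdb1, a histone methyltransferase of silent repeats, fell by 1.52 ± 0.20 in DN1eP relative to NKT-1, with 3.05 ± 0.892 FPKM in DN1eP and 10.5 ± 1.22 in NKT-1. It was 1 of 2 called, both lower, among the 4 of 5 list genes that could be tested, whose median was -0.46, against -0.07 over all genes. Of all genes, 33.7% were called there, 18.9% lower, so a count over 4 genes says little about the list. Of 13 tested genes of active demethylation and base excision, 1 was higher and 3 were lower in DN1eP than in NKT-1, with a median of -0.25, against -0.07 over all genes, a share of calls near the 33.7% of all genes. Neil3, a glycosylase, averaged 0.421 ± 0.308 FPKM in DN1eP and 6.93 ± 2.32 in NKT-1 (-2.46 ± 0.34). In DN1eP-NKT relative to NKT-3, 4 of the 13 were higher and 1 lower, with a median of 0.16, against 0.05 over all genes, of which 23.4% were called. Gadd45g, a stress-response gene linked to demethylation, was high in the cultured cells at 56.1 ± 1.21 FPKM, against 2.27 ± 0.698 in NKT-1, 3.02 ± 1.5 in NKT-2 and 3.92 ± 1.38 in NKT-3. The log2 changes were 4.15 ± 0.41, 3.91 ± 0.33 and 3.57 ± 0.36. The stromal marker sum was 71.7 to 383 FPKM in the same DN1eP-NKT libraries, and its part in the Gadd45g level was not tested.

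Of 11 tested readers of CpG, 2 were higher and 1 lower in NKT-3 than in NKT-1, and 3 were higher and 2 lower in DN1eP than in NKT-1. Of all genes, 37.2% were called in NKT-3 minus NKT-1 and 33.7% in DN1eP minus NKT-1, and the reader medians in DN1eP minus NKT-1 and over all genes were -0.42 and -0.07. Zbtb38 and Zbtb4, zinc finger proteins that bind methylated CpG, rose in NKT-3 relative to NKT-1 by 0.96 ± 0.23 (adjusted p = 0.0015, limma) and 1.79 ± 0.21 (adjusted p = 1.95e-07). Both were also higher in DN1eP than in NKT-1. Zbtb4 averaged 3.43 ± 0.945 FPKM in DN1eP and 0.930 ± 0.269 in NKT-1 (1.18 ± 0.26). Zbtb38 averaged 7.52 ± 1.90 in DN1eP and 2.4 ± 1.45 in NKT-1 (1.38 ± 0.28). Cxxc5, whose product binds unmethylated CpG, averaged 4.64 ± 2.73 FPKM in DN1eP-NKT, against 21.6 ± 9.59 in NKT-1, 19.6 ± 5.86 in NKT-2 and 20.1 ± 2.08 in NKT-3. The log2 changes were -2.04 ± 0.36, -1.93 ± 0.29 and -2.0 ± 0.31, all called.

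Genes that supply the cofactors of these enzymes were counted in the same way. Of 10 TET cofactor and partner genes, 3 were higher and none lower in DN1eP-NKT than in NKT-3, with a median of 0.27, against 0.05 over all genes. Of all genes, 23.4% were called there, 15% higher, so the count is not far from that share. With upper-quartile scaling 2 of the 3 calls held. Idh1, which makes 2-oxoglutarate, the substrate of Tet enzymes, averaged 10.4 ± 4.72 FPKM in DN1eP-NKT and 0.967 ± 0.143 in NKT-3 (2.43 ± 0.31, adjusted p = 1.22e-06, limma). None of the 10 was called in DN1eP relative to NKT-3, where the median was 0.23, against 0.16 over all genes. Of 13 genes of methyl donor supply, 10 were lower and 1 higher in NKT-3 than in NKT-1, with a median of -1.29, against -0.16 over all genes. Shmt1, an enzyme of the folate cycle, had the largest fall among them, by 2.42 ± 0.28. In DN1eP, 7 of the 13 were lower and 1 higher than in NKT-1 (median -0.93, against -0.07 over all genes), and 4 were higher and none lower than in NKT-3 (median 0.31, against 0.16). Against NKT-3, 20.6% of all genes were called, and 2 of the 4 calls held with upper-quartile scaling or quantile normalization. In DN1eP-NKT, 8 were higher and 1 lower than in NKT-3 (median 0.91, against 0.05 over all genes), with Mthfd2, a mitochondrial folate enzyme, at 64.2 ± 13.6 FPKM in DN1eP-NKT and 12.5 ± 1.51 in NKT-3 (2.25 ± 0.21).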

How the data were processed

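RNA-seq of 26 libraries was analysed from the deposited FPKM values, which the authors made per gene from reads aligned to mm9 with TopHat2 2.0.6 and Cufflinks 2.1.1, per the submitters' processing notes. Rows of 1 symbol were summed; 13 symbols with a failed or overflowing estimate and 86 absent from at least 1 file were left out, leaving 23168. Files held 23697 or 23700 rows, in 2 versions of the gene intervals. Genes at 1 FPKM or more in 4 libraries (11663) were tested on log2(FPKM + 1) without further scaling in 1 fit with limma (version 3.58.1 under R 4.3.3, with a variance trend and robust moderation) with 8 coefficients, 1 per group and library set, checked on simulated data. Sets were parted by median FPKM. Calls were made at 0.05 after Benjamini-Hochberg adjustment over all tested genes. No counts were used, so depth is relative and FPKM intervals are the deposited ones. The members and gene lists were chosen with earlier results of these data known. Of each other list, up to 3 called genes with the largest changes per comparison could be named, of which the text prints a part, and for each member the 5 genes most correlated with it. Alternatives tried were other pseudocounts, filters, scalings and rows, set terms, a replicate block and leaving out libraries. Raw reads were not used.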

Additional observations from a re-analysis of the deposited data

Results flagged for a closer look

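A member's highest or lowest library was set against the others of its group and library set by Dixon's gap, in the 21 cases with at least 4 libraries, and 3 stood apart. Chance flags about 1 in 20 such groups. Dnmt3a measured 5.41 FPKM in DN1eP library 4, with the other 3 at 2.46 to 2.85, so that the gap took 0.865 of the range. Dnmt3b measured 10.6 FPKM in NKT-2 library 4, with the other 3 of the higher set at 8.41 to 8.44 (0.984 of the range). Tet1 measured 0.409 FPKM in DN1eP-NKT library 1, with the other 3 at 0.0798 to 0.117 (0.886 of the range); this was the deepest library of the group, with stromal markers at 71.7 FPKM against 255 to 383 in the other 3, and their part in the value was not tested.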

How the results depend on the processing

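Of the 27 calls, 27 held with a pseudocount of 0.1, with no filter and with the highest row per symbol, 26 with either other scaling, 26 without the 4 library 1s, 19 with no library set term and 20 of 24 in fits of only the compared libraries, which could not be run for DN1eP-NKT minus DN1eP. For DN1eP minus NKT-3, with 1 member called, the count was 2 with a pseudocount of 0.1, no filter, quantile normalization, the gene interval version as a term, or without the 4 library 1s, and 0 with only the compared libraries, no library set term or a replicate block. The interval term and the removal of the library 1s were chosen after seeing the data. For DN1eP minus NKT-2 (4 called) it was 2 with only the compared libraries and 1 with the replicate block. DN1eP-NKT minus NKT-1 and minus NKT-2 (2 each) had 1 with a filter of 5 FPKM, which drops Tet1, and 1 with no set term, and NKT-3 minus NKT-2 (4) had 2 with no set term. Dnmt3a in DN1eP-NKT minus DN1eP was 1.0 with no set term, against -0.17 as tested. Leaving out 1 library at a time gave 3 to 4 members called for DN1eP minus NKT-1, 2 to 4 (minus NKT-2) and 0 to 2 (minus NKT-3). It gave 2 to 2, 2 to 3 and 2 to 3 for DN1eP-NKT minus stages 1 to 3, 0 to 1 for NKT-2 minus NKT-1, 3 to 4 for NKT-3 minus either stage and 3 to 4 for DN1eP-NKT minus DN1eP. The lowest count for DN1eP minus NKT-2 was without NKT-2 library 5. The 1 call between NKT-2 and NKT-1 was Uhrf1 without NKT-2 library 5 (adjusted p = 0.05, limma). The causes were not tested. The replicate block kept 20 of the 27 calls, but of 44 same-numbered pairs of libraries 11 had deviations correlated above 0.1 (-0.347 to 0.484). These include all 6 pairs among library 1 of DN1eP-NKT, DN1eP, NKT-1 and NKT-2 (0.161 to 0.484), each the deep one of its group in its set, but none of their 4 pairs with library 1 of NKT-3. The labels give no shared source for a number, and not every pair correlated, so the samples were not treated as paired. In DN1eP minus NKT-3 the all-gene median shifted by -0.22 with upper-quartile scaling, where 78.6% of calls were higher as tested and 51.0% after it. Depth limits Tet1, whose deposited interval reached 125% of the level to each side.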
